A study of Rattus norvegicus with 9 samples.

Results

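The 6 genes described here, Kl, Vdr, Casr, Pth1r, Calb1 and Trpv5, are the Klotho, vitamin D and calcium-handling genes of rat kidney. They were the rows of the deposited FPKM table (fragments per kilobase of transcript scaled to the mapped reads) that carried these names, 6 of its 11235 genes, and each was among the 17335 genes tested on read counts. Klotho, encoded by Kl, is the co-receptor that lets FGF receptors bind the bone hormone FGF23, which makes the kidney excrete phosphate and lowers the synthesis of active vitamin D. Active vitamin D acts through the nuclear receptor encoded by Vdr, parathyroid hormone acts through Pth1r, and the calcium-sensing receptor Casr reads blood calcium in the thick ascending limb. In the distal tubule the apical channel Trpv5 admits calcium, and calbindin, encoded by Calb1, carries it across the cell.

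The libraries fell into 3 groups of 3, all from the kidneys of wild-type Sprague-Dawley rats aged 6 to 8 weeks. The I/R + rapamycin group had renal ischaemia for 45 min, then reperfusion, and received rapamycin, an inhibitor of the kinase mTOR. The I/R group had the same injury without the drug, and the sham group had a sham operation. The labels disagreed on the treatment: the design text gave male rats and 1 mg/kg of rapamycin per day into the peritoneum, while the sample protocols gave both sexes, 1 or 2 mg/kg per day by gavage and 3 or 7 days of reperfusion, so the sex, dose, route and time of these libraries are unsettled. The replicates are numbered but not said to be separate animals, and p-values reflect only how far these samples spread.

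Total counts ran between 44582251 (I/R + rapamycin 1) and 60538627 (sham 3) per library, and the 6 genes had between 481 reads (Trpv5) and 24436 reads (Calb1) in a library. The labels named both kidney and renal tubular cell, and markers of podocytes (4 of 4), endothelium (4 of 4) and leukocytes (3 of 4) were detected beside those of every tubule segment listed, so the libraries held more than tubule cells. On the first principal component, which held 26.2% of the variance, I/R 1 (51.2) and sham 3 (66.1) stood apart at the positive end. I/R + rapamycin 1 (-62.2) and 2 (-40.9) stood apart at its other end. The fits below without the libraries that stood apart leave out I/R 1 and sham 3 alone. In bulk tissue, fewer cells of a type and less RNA per cell cannot be told apart.

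The levels of the 6 genes per transcript length spanned a wide range. Over the 9 libraries the mean level of Calb1 was 164 FPKM, which ranked 296 of 11235 genes, and that of Pth1r was 160 FPKM, at rank 299. These neighbours were not separated by their spread, since Calb1 ran between 136 and 195 FPKM and Pth1r between 139 and 175 FPKM. Kl followed with a mean level of 53.1 FPKM (rank 1014) and Vdr with 33.6 FPKM (rank 1639), with ranges of 37.3 to 74.0 FPKM for Kl and 17.3 to 53.1 FPKM for Vdr. The mean level of Casr, 6.74 FPKM, was below the median gene of the table at 8.42 FPKM, and Trpv5 was lowest at 2.67 FPKM, with at most 3.14 FPKM in any library. The ranges of Kl and Vdr overlapped, while those of Casr and Trpv5 overlapped with no other member.

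**Figure D1:**
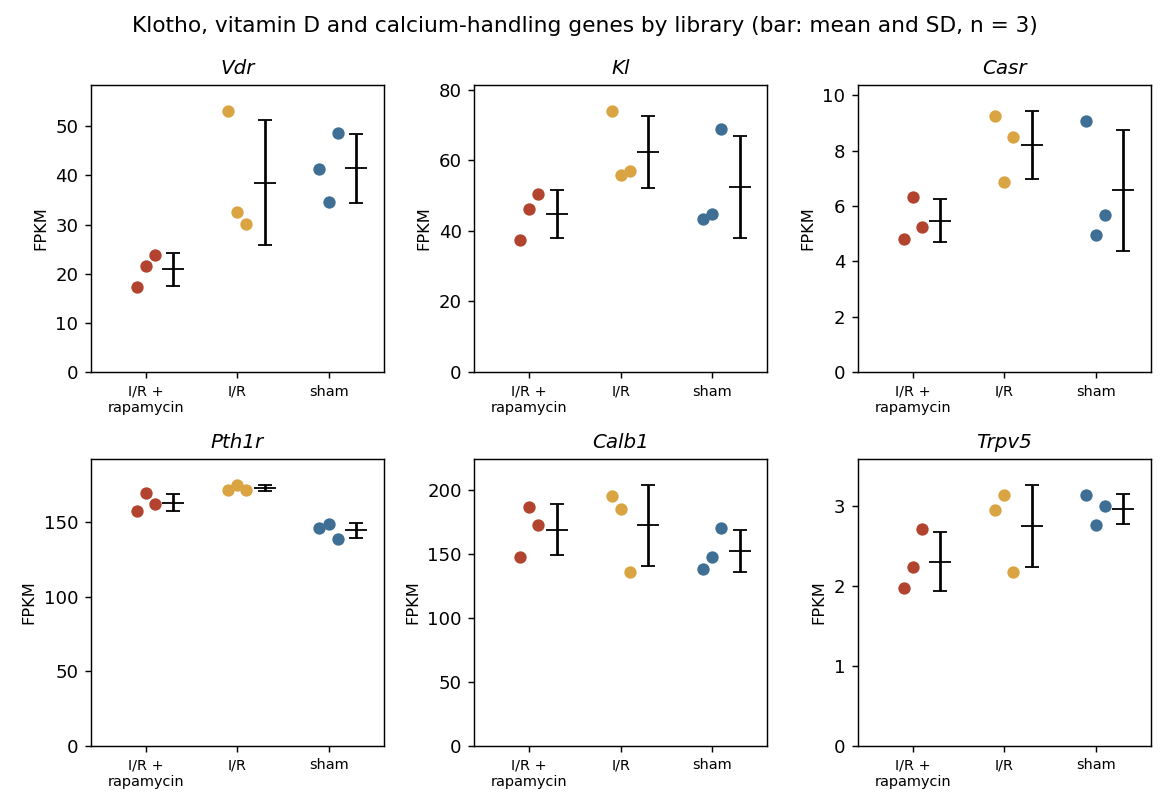
FPKM level (vertical axis, starting at 0) of the 6 genes in each library of the I/R + rapamycin, I/R and sham groups, with the mean and SD of the 3 libraries beside the points. Vdr was at 17.3 to 23.9 FPKM in the I/R + rapamycin libraries and at 30.1 FPKM or more in the other libraries, and Pth1r was at 139 to 149 FPKM in the sham libraries and at 158 FPKM or more elsewhere.

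The promoters of the 3 genes that were lower with rapamycin than in I/R libraries without overlap, Vdr, Kl and Casr, are shown to let their sequence be read beside those values. They run for 250 bases before and 50 bases after the start site, from RefSeq with build GRCr8, and capitals mark GC boxes (GGGCGG, the binding letters of SP-family factors, on either strand). Vdr lies at chr7:130916708-130917007 on the minus strand, Kl at chr12:5325753-5326052 on the plus strand and Casr at chr11:77740364-77740663 on the plus strand.
Vdr: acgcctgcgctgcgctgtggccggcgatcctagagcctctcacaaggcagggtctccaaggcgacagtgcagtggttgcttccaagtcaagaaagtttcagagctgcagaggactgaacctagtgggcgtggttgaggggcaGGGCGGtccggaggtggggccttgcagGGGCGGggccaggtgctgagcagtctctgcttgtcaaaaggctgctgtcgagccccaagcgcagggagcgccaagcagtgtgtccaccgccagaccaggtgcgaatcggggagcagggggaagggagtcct
Kl: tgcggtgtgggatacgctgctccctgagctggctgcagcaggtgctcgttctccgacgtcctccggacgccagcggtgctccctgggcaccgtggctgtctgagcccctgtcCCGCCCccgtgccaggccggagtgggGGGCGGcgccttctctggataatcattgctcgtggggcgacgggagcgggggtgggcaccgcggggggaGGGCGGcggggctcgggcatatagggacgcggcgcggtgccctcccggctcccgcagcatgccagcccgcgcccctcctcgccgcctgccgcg
Casr: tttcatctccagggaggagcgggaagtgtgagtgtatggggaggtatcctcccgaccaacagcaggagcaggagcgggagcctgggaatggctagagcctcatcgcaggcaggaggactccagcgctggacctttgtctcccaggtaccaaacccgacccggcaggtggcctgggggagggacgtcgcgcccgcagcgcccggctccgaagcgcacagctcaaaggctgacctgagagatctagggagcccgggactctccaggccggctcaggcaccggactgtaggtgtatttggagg

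The Vdr promoter held 2 GC boxes on its own strand, which began at -108 and -81 from the start site, in 64.3% GC. That of Kl held 3, at -138 on the opposite strand and at -112 and -43 on its own, in 75% GC, and the Casr window held none in 64.7% GC. Of the other members in the table, the Pth1r promoter held 7 GC boxes, some of them overlapping, and that of Trpv5 none. A GC box was present in 33.1% of the 33469 promoters of the same length, whose median was 51.7% GC. The TATA box TATAAA (14.2% of promoters), the CCAAT box (37.5%), the E-box CACGTG (6.42%) and the vitamin D response element of the DR3 type (0.35%), each searched on both strands, had no match in the 5 member promoters. The cAMP element half-site TGACG (21.2%) was found once, in Pth1r at -33. A match is a description of the letters and not a bound site.

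In I/R + rapamycin libraries against I/R libraries no member passed edgeR's test, and the members with the lowest fitted differences were the vitamin D receptor, the calcium-sensing receptor and Klotho. The fitted log2 difference was -0.81 for Vdr, -0.51 for Casr and -0.41 for Kl, and the groups did not overlap for these 3 genes, against a background of 24.6% of all genes tested (12.8% lower in this way). By edgeR's quasi-likelihood test 0 members were called at a Benjamini-Hochberg adjusted p of 0.05, which 0.127% of all genes passed, and 2 were under an unadjusted 0.05 (16.3% of all genes). DESeq2 called 1 member, Vdr, against 5.2% of the 13617 genes to which it gave an adjusted p, and limma on FPKM called 0. The fitted difference was below 0 in 5 members, against 49.2% of all genes, and the median log2 difference of the 6 was -0.30, against 0.00586 over all genes.

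Against sham libraries, the I/R + rapamycin libraries had less Vdr, by -0.94 on the log2 scale, less Trpv5 (-0.32) and more Pth1r (0.22). These were the 3 members whose groups did not overlap, against 19.3% of all genes (9.65% lower and 9.69% higher). The edgeR test called 0 members at an adjusted 0.05 (0.156% of all genes) and 2 at an unadjusted 0.05 (13.8%). DESeq2 called Vdr alone (3.59% of the 15959 genes to which it gave an adjusted p), and limma on FPKM called 0. The fitted difference was below 0 in 4 members, against 49.8% of all genes, and their median was -0.20, against 0.0012 over all genes. This comparison and the one with I/R share the rapamycin libraries, so their values are not independent.

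Between I/R and sham libraries the largest fitted log2 difference of a member was 0.31 (Casr), in the fit of all 9 libraries. That value is an estimate and not a bound. With 1 library left out, Casr ran between 0.16 and 0.58, Kl between 0.087 and 0.48, and Vdr between -0.40 and 0.025. In I/R libraries against sham libraries 4 members had a positive fitted difference and 2 a negative one (49.3% of all genes), with a median of 0.19 against 0.00327 over all genes. Pth1r, higher in I/R libraries by 0.24, was the 1 member whose groups did not overlap, against 14.6% of all genes (7.43% higher and 7.19% lower). The edgeR test called 0 members (0.0577% of all genes) and 1 at an unadjusted 0.05 (9.42%). DESeq2 (1.38% of the 17302 genes to which it gave an adjusted p) and limma called 0. In the test for any difference among the 3 groups, edgeR called 0 members (0.179% of all genes) and 2 at an unadjusted 0.05 (15.6%). There DESeq2 called Vdr (5.97% of the 15959 genes to which it gave an adjusted p).

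**Figure D2:**
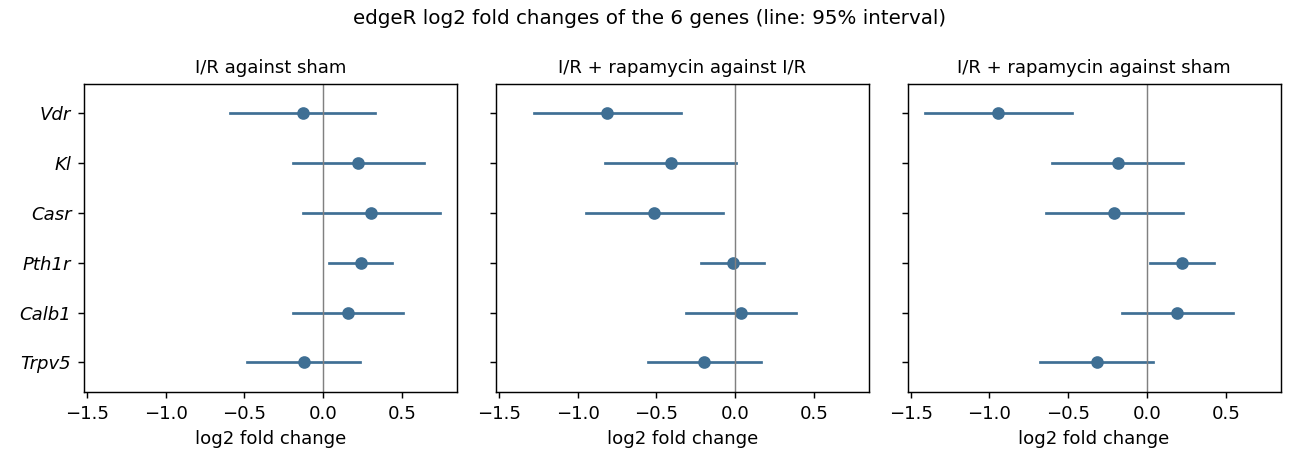
Fitted log2 fold change (horizontal axis) of each gene in the 3 comparisons from edgeR, with the 95% interval as a line. The intervals of Vdr lie below 0 in both comparisons of I/R + rapamycin, at -1.28 to -0.35 against I/R and at -1.41 to -0.48 against sham.

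Vdr (ENSRNOG00000054420) encodes the nuclear receptor through which active vitamin D switches genes on. It was at 41.0, 51.6 and 54.7 CPM (read counts scaled to library size with TMM factors) in I/R + rapamycin libraries, against 116, 76.4 and 66.6 CPM in I/R libraries and 91.0, 81.3 and 111 CPM in the sham libraries. All 3 rapamycin libraries lay below all 6 others, which 4.34% of all genes did and no other member did, and the I/R and sham libraries overlapped, with I/R 1 and sham 3 highest. Mean levels were 49.1 ± 7.17 CPM in I/R + rapamycin, 86.3 ± 26.0 CPM in I/R and 94.5 ± 15.2 CPM in sham (SD, n = 3 each). In I/R + rapamycin Vdr was at 0.569 times its I/R level (95% interval 0.412 to 0.787), with a log2 difference of -0.81 (SE 0.21) and an adjusted p of 0.141 by edgeR's quasi-likelihood test. It was at 0.520 times its sham level (0.376 to 0.719), with a log2 difference of -0.94 (SE 0.21) and an adjusted p of 0.120 by the same test. DESeq2 gave adjusted p-values of 0.00647 against I/R and 0.000832 against sham.

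The Vdr result shifted with the libraries in the fit. Without I/R + rapamycin 1 the edgeR difference was -0.70 from I/R (adjusted p 0.435) and -0.83 from sham (adjusted p 0.382), and without I/R + rapamycin 2 the adjusted p against sham was 0.344. Without I/R 1 the difference from I/R was -0.54 by edgeR and was not called (adjusted p 0.207), while that from sham was -0.95 and was called, with an adjusted p of 0.0356. I/R 1 and sham 3 were the libraries highest on the first principal component and in Vdr. Without both, the difference from sham was -0.81 with an edgeR adjusted p of 0.0348. In I/R against sham libraries the difference was -0.13 (SE 0.21, adjusted p 0.892 by edgeR), and it turned positive when I/R 3 (0.025) or sham 3 (0.00334) was left out.

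Kl (ENSRNOG00000001092), the gene of Klotho, was at 153, 192 and 200 CPM in I/R + rapamycin libraries, against 279, 227 and 219 CPM in I/R libraries and 165, 182 and 273 CPM in sham libraries. All rapamycin libraries lay below all I/R libraries, and the sham libraries spanned both, with sham 3 close to the highest I/R library. Means were 182 ± 25.0 CPM in I/R + rapamycin, 241 ± 32.7 CPM in I/R and 207 ± 57.9 CPM in sham (SD, n = 3 each). Kl was lower in I/R + rapamycin than in I/R libraries by -0.41 on the log2 scale (SE 0.19, edgeR adjusted p 0.315). Against sham the difference was -0.19 in I/R + rapamycin (edgeR adjusted p 0.707), which turned to 0.063 without sham 3, and 0.22 in I/R (edgeR adjusted p 0.762).

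Casr (ENSRNOG00000002265), which senses extracellular calcium and restrains its reabsorption, was at 23.5, 31.0 and 24.6 CPM in I/R + rapamycin libraries, against 41.3, 33.0 and 38.6 CPM in I/R libraries and 40.9, 23.8 and 26.5 CPM in sham libraries. The rapamycin and I/R groups did not overlap, and sham 1 alone among the sham libraries was near the highest I/R library. Means were 26.4 ± 4.08 CPM in I/R + rapamycin, 37.6 ± 4.23 CPM in I/R and 30.4 ± 9.20 CPM in sham (SD, n = 3 each). The log2 difference of I/R + rapamycin from I/R was -0.51 (SE 0.20), with an unadjusted p of 0.0254 and an adjusted p of 0.249 in edgeR's test. Differences from sham were -0.21 in I/R + rapamycin (edgeR adjusted p 0.685; 0.062 without sham 1) and 0.31 in I/R (edgeR adjusted p 0.673).

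Pth1r (ENSRNOG00000020948), the receptor for parathyroid hormone in proximal and distal tubule, was the steadiest member. It was at 403, 438 and 400 CPM in I/R + rapamycin libraries, against 403, 443 and 410 CPM in I/R libraries and 347, 376 and 342 CPM in sham libraries. All sham libraries lay below all 6 others, which 2.29% of all genes did, and the rapamycin and I/R groups overlapped in CPM though not in FPKM. Means were 414 ± 20.8 CPM in I/R + rapamycin, 418 ± 21.3 CPM in I/R and 355 ± 18.5 CPM in sham (SD, n = 3 each). Its SD within groups was 0.073 on the log2 scale, where 3.81% of all genes had a smaller one and the median gene had 0.22. The log2 difference from sham was 0.22 in I/R + rapamycin (SE 0.091, edgeR adjusted p 0.325) and 0.24 in I/R (SE 0.091, edgeR adjusted p 0.459), and that of I/R + rapamycin from I/R was -0.016 (95% interval -0.22 to 0.19).

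Calb1 (ENSRNOG00000007456), the calcium-binding protein of distal tubule cells, showed no group pattern beyond its spread. It was at 361, 462 and 408 CPM in I/R + rapamycin libraries, against 439, 449 and 311 CPM in I/R libraries and 315, 358 and 402 CPM in sham libraries. The 3 groups overlapped, and the lowest value was that of I/R 3. The log2 difference of I/R + rapamycin was 0.037 from I/R (95% interval -0.31 to 0.39, edgeR adjusted p 0.937) and 0.19 from sham (edgeR adjusted p 0.633), and that of I/R from sham was 0.16 (edgeR adjusted p 0.809).

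Trpv5 (ENSRNOG00000015394), the channel through which calcium enters distal tubule cells, was at 11.1, 12.7 and 14.7 CPM in I/R + rapamycin libraries, against 15.2, 17.5 and 11.4 CPM in I/R libraries and 16.4, 15.4 and 16.2 CPM in sham libraries. The rapamycin libraries lay below the sham libraries, and the I/R libraries overlapped with both, with I/R 3 close to the lowest rapamycin library. The log2 difference of I/R + rapamycin was -0.32 from sham (SE 0.16, edgeR adjusted p 0.419) and -0.20 from I/R (edgeR adjusted p 0.587). In I/R against sham libraries it was -0.12 (edgeR adjusted p 0.859), and 0.029 without I/R 3.

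The other genes of the pathway were taken from 6 lists with 60 genes, of which 49 were tested and 11, Fgf23, Klb, Cyp27b1, Gc, Pth2r, Arrb1, Rgs14, Pthlh, Trpv6, Atp2b2 and Cldn14, were not analysed here. With edgeR 0 of the 49 were called in each comparison. At an unadjusted 0.05, 14 of the 49 were lower and 0 higher in I/R + rapamycin than in I/R libraries, where 16.3% of all genes were under that p in either direction. The share of all genes that were lower at that p is not given here, and the lists were chosen with earlier results of these data known. In I/R + rapamycin against sham libraries 4 were lower and 3 higher, a share near the 13.8% of all genes, and in I/R against sham libraries 3 were lower and 6 higher, beside 9.42% of all genes. DESeq2 called 4 of the 49 in I/R + rapamycin against I/R (Ncoa2, Med1, Gnaq and Atp2b4), beside 5.2% of the genes to which it gave an adjusted p. It called 3 in I/R + rapamycin against sham (Cyp24a1, Gnaq and Cldn2, beside 3.59% of such genes) and 0 in I/R against sham (1.38%).

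Of the vitamin D genes, 12 of 14 were tested, and 9 of them were below 0 in I/R + rapamycin against I/R libraries, beside 49.2% of all genes. Their median log2 difference was -0.36, against 0.00586 over all genes. Cyp24a1, the hydroxylase that inactivates vitamin D and a classical target of its receptor, was at 59.6, 70.3 and 109 CPM in I/R + rapamycin libraries, against 388, 123 and 87.4 CPM in I/R libraries and 397, 498 and 502 CPM in sham libraries. All rapamycin and all I/R libraries lay below all sham libraries, I/R 1 only just, and the rapamycin and I/R groups overlapped. Groups lay apart in this direction in 9.65% of all genes for I/R + rapamycin and 7.19% for I/R. The log2 difference from sham was -2.55 in I/R + rapamycin (SE 0.58), with an adjusted p of 0.167 by edgeR and 0.00266 by DESeq2. It was called by edgeR without I/R 1 (-2.55, adjusted p 0.0101), without both libraries that stood apart (-2.50, adjusted p 0.0167) and with the 6 libraries compared alone (adjusted p 0.0139), so that with DESeq2 4 of 20 alternatives called it. Over all 20 it lay between -2.84 and -2.38, and the highest edgeR adjusted p was 0.463, without I/R + rapamycin 1. In I/R against sham it was -1.22 (edgeR adjusted p 0.565). Without I/R 1 it was -2.15 with an edgeR adjusted p of 0.0348, the 1 of 20 alternatives that called it. Without both libraries that stood apart it was -2.09 and not called (edgeR adjusted p 0.0578). Against I/R the difference of I/R + rapamycin was -1.33 (edgeR adjusted p 0.305).

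Of the 12 listed vitamin D genes tested, Ncoa2, a coactivator of nuclear receptors, and Med1 were those that DESeq2 called in I/R + rapamycin against I/R. Ncoa2 averaged 23.8 ± 6.83 CPM in I/R + rapamycin libraries and 41.9 ± 3.59 CPM in I/R libraries, a log2 difference of -0.81 (SE 0.21, adjusted p 0.139 by edgeR and 0.0101 by DESeq2). Med1, a Mediator subunit that binds nuclear receptors, averaged 45.6 ± 5.29 CPM in I/R + rapamycin libraries and 61.5 ± 5.72 CPM in I/R libraries, a difference of -0.43 (SE 0.10, adjusted p 0.124 by edgeR and 0.0130 by DESeq2). In both genes the groups did not overlap, as in 24.6% of all genes (12.8% lower). Lrp2, the megalin receptor that takes up filtered vitamin D with its carrier, differed by -0.29 between I/R + rapamycin and sham (edgeR adjusted p 0.376), and Rxrg, a dimer partner of the receptor, by -1.35 between I/R and sham (edgeR adjusted p 0.500).

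**Figure D3:**
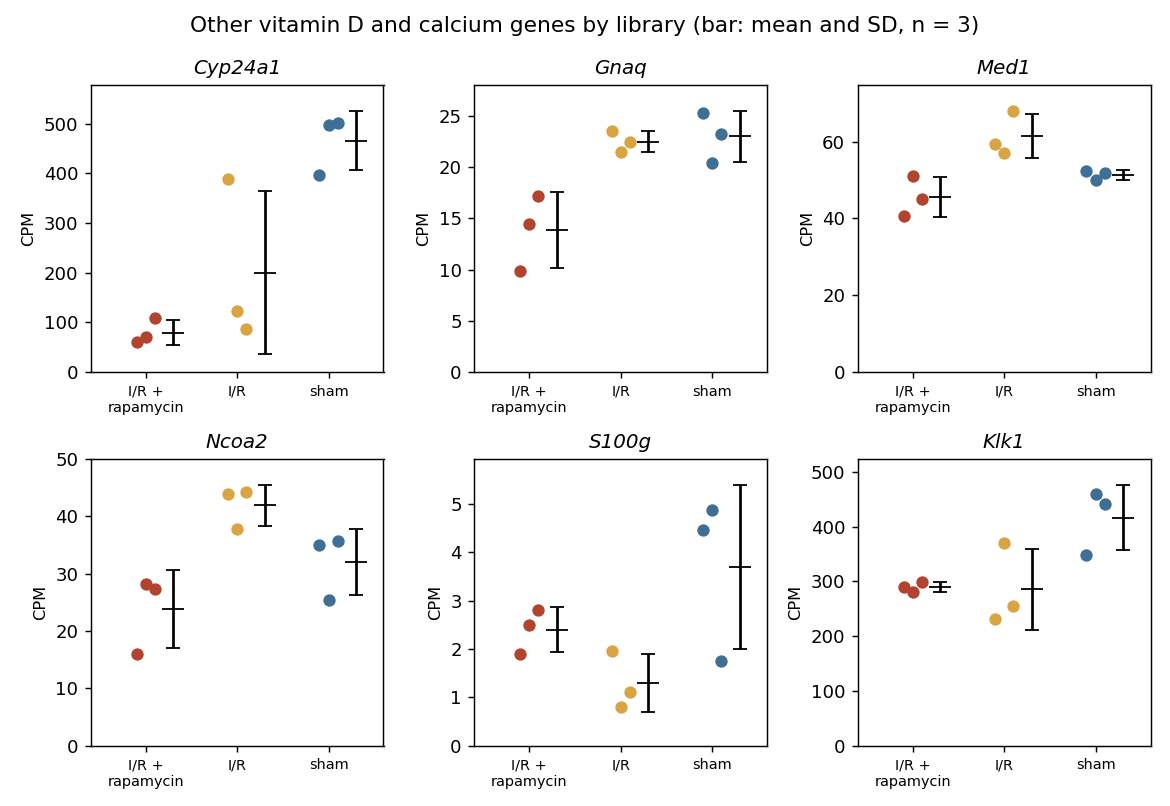
CPM level (vertical axis, starting at 0) of 6 pathway genes in each library of the I/R + rapamycin, I/R and sham groups, with the mean and SD of the 3 libraries beside the points. Cyp24a1 was at 59.6 to 109 CPM in I/R + rapamycin libraries and at 397 to 502 CPM in sham libraries, while I/R 1 at 388 CPM lay far above the other 2 I/R libraries.

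In the list of the Klotho receptor complex, 8 of 10 genes were tested, with a median of -0.19 in I/R + rapamycin against I/R libraries, -0.071 against sham and 0.14 in I/R against sham. Fgfr1, the receptor that pairs with Klotho, averaged 76.4 ± 4.48 CPM in I/R + rapamycin libraries and 96.7 ± 2.06 CPM in I/R libraries, a log2 difference of -0.34 (edgeR adjusted p 0.172). Adam10, a protease that sheds Klotho from the membrane, averaged 62.7 ± 4.96 CPM in I/R + rapamycin libraries and 76.9 ± 5.75 CPM in I/R libraries, a difference of -0.30 (edgeR adjusted p 0.166). Both had groups that did not overlap in that comparison, as 24.6% of all genes did. Egr1, an immediate early gene used as a readout of FGF23 signalling, was lower in I/R + rapamycin by -2.03 than in I/R (edgeR adjusted p 0.299), but its I/R libraries ran between 45.5 and 351 CPM.

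The list of parathyroid hormone and calcium receptor signalling had 6 of 10 genes tested and a median of 0.045 in I/R + rapamycin against I/R libraries. Gnaq, the G protein alpha subunit through which both receptors can signal, was at 9.84, 14.5 and 17.2 CPM in I/R + rapamycin libraries, against 23.6, 21.5 and 22.4 CPM in I/R libraries and 25.3, 20.4 and 23.3 CPM in sham libraries. All rapamycin libraries lay below all 6 others, as they did for Vdr and in 4.34% of all genes. The log2 difference was -0.70 from I/R (SE 0.18, adjusted p 0.130 by edgeR and 0.0155 by DESeq2) and -0.73 from sham (SE 0.18, adjusted p 0.139 by edgeR and 0.0112 by DESeq2). Ap2s1, an adaptor subunit that mediates uptake of the calcium receptor, differed the other way, by 0.33 from I/R (edgeR adjusted p 0.317), and Arrb2 and Nherf1 by 0.15 and 0.079 between I/R and sham (edgeR adjusted p 0.808 and 0.913).

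Of 9 genes of transcellular calcium transport, 7 were tested. S100g, the small vitamin D dependent calbindin, was at 1.89, 2.49 and 2.81 CPM in I/R + rapamycin libraries, against 1.96, 0.80 and 1.12 CPM in I/R libraries and 4.46, 4.88 and 1.76 CPM in sham libraries. Sham 3 lay within the I/R values and the other sham libraries above them. The log2 difference of I/R from sham was -1.51 (SE 0.43, edgeR adjusted p 0.298), and -2.28 with an adjusted p of 0.0242 without both libraries that stood apart. That was the 1 of 20 alternatives that called it, and without sham 2 it was -1.26 (edgeR adjusted p 0.754). Klk1, the tissue kallikrein of the connecting tubule, averaged 290.2 ± 8.86 CPM in I/R + rapamycin, 286 ± 73.9 CPM in I/R and 416 ± 60.0 CPM in sham libraries, with differences from sham of -0.52 in I/R + rapamycin (edgeR adjusted p 0.226) and -0.54 in I/R (edgeR adjusted p 0.352).

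Pumps and an exchanger in the basolateral membrane pass the calcium on to the blood. Atp2b4, a calcium pump of the plasma membrane, averaged 66.4 ± 7.55 CPM in I/R + rapamycin libraries and 98.2 ± 19.8 CPM in I/R libraries, a log2 difference of -0.56 (SE 0.15, adjusted p 0.151 by edgeR and 0.0272 by DESeq2). The pump Atp2b1 differed by -0.33 (edgeR adjusted p 0.232) in the same comparison, and the exchanger Slc8a1 by -0.067 (edgeR adjusted p 0.899).

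The 8 of 9 tested genes of paracellular transport had a median log2 difference of -0.095 for I/R + rapamycin relative to I/R, of 0.081 for I/R + rapamycin relative to sham and of 0.13 for I/R relative to sham. Cldn2, the pore-forming claudin of the proximal tubule, averaged 451 ± 50.5 CPM in I/R + rapamycin libraries and 344 ± 23.6 CPM in sham libraries, a log2 difference of 0.39 (SE 0.11, adjusted p 0.181 by edgeR and 0.0162 by DESeq2). Cldn19, which forms the divalent cation path of the thick ascending limb with Cldn16, differed by 0.79 in the same comparison (edgeR adjusted p 0.291), and Cldn16 by 0.41 between I/R and sham (edgeR adjusted p 0.475). Trpm7 and Cnnm2, of magnesium transport, differed by -0.18 and -0.28 between I/R + rapamycin and I/R (edgeR adjusted p 0.392 and 0.399).

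All 8 phosphate transport genes were tested. Slc34a1, the main sodium phosphate carrier of the proximal tubule and a target of FGF23 and parathyroid hormone, averaged 3076 ± 323 CPM in I/R + rapamycin, 3231 ± 388 CPM in I/R and 3126 ± 647 CPM in sham libraries, with log2 differences of -0.071 from I/R and -0.023 from sham with rapamycin. Slc34a3, a second such carrier, was higher than in sham by 0.32 in I/R + rapamycin (edgeR adjusted p 0.354) and by 0.32 in I/R (edgeR adjusted p 0.525), and Slc20a2 by 0.21 in both (edgeR adjusted p 0.422 and 0.584). Xpr1, the phosphate exporter, differed by -0.38 between I/R + rapamycin and I/R (edgeR adjusted p 0.285). Stc2, a stanniocalcin, differed by 1.07 there (edgeR adjusted p 0.648), with values of 110, 92.6 and 16.2 CPM in I/R + rapamycin against 15.7, 19.7 and 68.8 CPM in I/R libraries, so its groups overlapped widely.

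**Figure D4:**
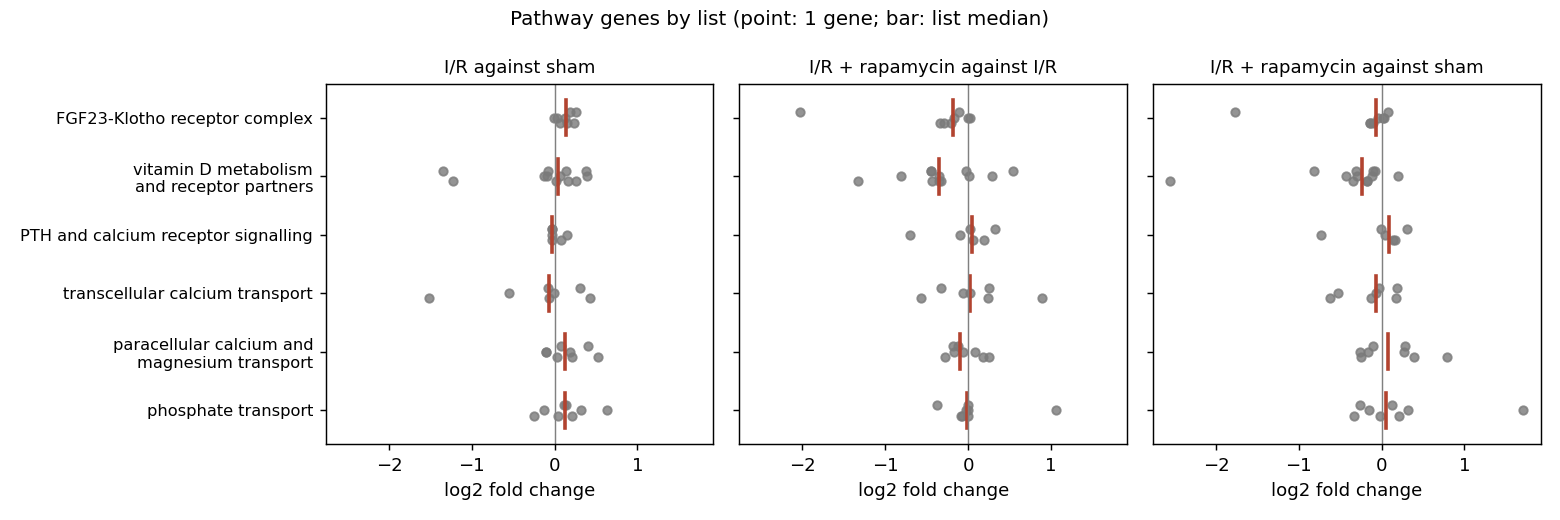
Fitted log2 fold change (horizontal axis) of the 49 tested pathway genes in the 3 comparisons, by list, with each gene a point and the list median a bar. The median of the vitamin D list is -0.36 in I/R + rapamycin against I/R, the lowest of the 6 lists there, and Cyp24a1 is the lowest point against sham at -2.55.

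Calb1 and Trpv5 belong to the distal tubule, whose other markers were read in the same libraries. Of 8 markers of the distal convoluted and connecting tubule, 5 were tested and none of these was at 0, and their sum was 641 to 997 CPM in I/R + rapamycin, 749 to 1164 CPM in I/R and 991 to 1181 CPM in sham libraries. Their median log2 difference was -0.30 for I/R + rapamycin relative to I/R and -0.38 relative to sham, where all 5 were below 0. All 5 were also below 0 for I/R relative to sham, with a median of -0.12. Klhl3, a ubiquitin ligase adaptor of that segment, differed by -0.74 from I/R (edgeR adjusted p 0.184) and by -0.87 from sham (edgeR adjusted p 0.177), and the sodium chloride cotransporter Slc12a3 by -0.63 from sham (edgeR adjusted p 0.220). In DESeq2 the adjusted p was 0.0447 and 0.0163 for these Klhl3 differences and 0.0439 for Slc12a3. DESeq2 calls were not confined to the distal markers. It called 1 of 4 podocyte markers lower than sham in I/R, and 1 of 4 in I/R + rapamycin. In I/R + rapamycin it also called 1 of 4 intercalated cell markers lower than sham and 1 of 5 principal cell markers higher than I/R. The 4 podocyte markers summed to 362 to 508 CPM in I/R + rapamycin, 389 to 535 CPM in I/R and 578 to 599 CPM in sham libraries, and all 4 were below 0 against sham, with a median log2 difference of -0.41 in I/R + rapamycin and -0.32 in I/R. The 4 markers of the thick ascending limb, the segment of Casr, summed to 2392 to 4732 CPM in I/R + rapamycin, 2294 to 4297 CPM in I/R and 2531 to 2765 CPM in sham libraries, with a median of 0.12 for I/R + rapamycin relative to I/R. The 5 proximal tubule markers summed to 3070 to 3471 CPM in I/R + rapamycin libraries. Their sums were 3267 to 3761 CPM in I/R and 2852 to 3813 CPM in sham libraries. All 5 were below 0 for I/R + rapamycin relative to I/R (median -0.12). For I/R relative to sham, all 5 principal cell markers (median -0.25) and all 4 intercalated cell markers (median -0.32) were below 0. Relative to sham, I/R + rapamycin had 3 of 5 and 3 of 4 of these below 0 (medians -0.29 and -0.067). Relative to I/R, it had 2 of 5 and 2 of 4 below 0 (medians 0.17 and 0.060). Red blood cell markers (2 of 3 tested) summed to 84.4 to 522 CPM in I/R + rapamycin, 1237 to 3317 CPM in I/R and 243 to 2536 CPM in sham libraries. On the first principal component I/R 1 and sham 3, where Vdr was highest, scored 51.2 and 66.1. I/R + rapamycin 1 and 2, where Vdr was lowest, scored -62.2 and -40.9. I/R + rapamycin 3 scored -8.67, above I/R 3 at -15.4, though its Vdr was lower (54.7 against 66.6 CPM). The part of these markers and of that component in the results was not tested.

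Across the 9 libraries, 15 pairs of members were correlated on log2 CPM, and none passed an exact permutation test after Benjamini-Hochberg adjustment over the pairs, the smallest adjusted p being 0.330. Vdr and Trpv5 had Pearson's r of 0.71 (exact permutation p 0.0341, adjusted 0.330) and Spearman's rho of 0.67 (exact permutation p 0.0589, adjusted 0.498). Without I/R + rapamycin 1 and I/R 1, the libraries farthest from the Vdr median, r was 0.61. Kl and Vdr had r of 0.68 (exact permutation p 0.0441, adjusted 0.330) and rho of 0.58 (exact permutation p 0.108, adjusted 0.498), and r of 0.26 without I/R 1 and sham 3, the libraries farthest from the Kl median. These were also the highest in Vdr, and leaving them out narrows the range of both genes, so the value over all 9 libraries rests on them in part. With group means removed, r was 0.80 for Kl and Vdr and 0.72 for Calb1 and Trpv5, which had 0.29 before. These were the 2 highest of the 15 such values, which ran down to -0.36 for Vdr and Pth1r, and they were not tested.

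**Figure D5:**
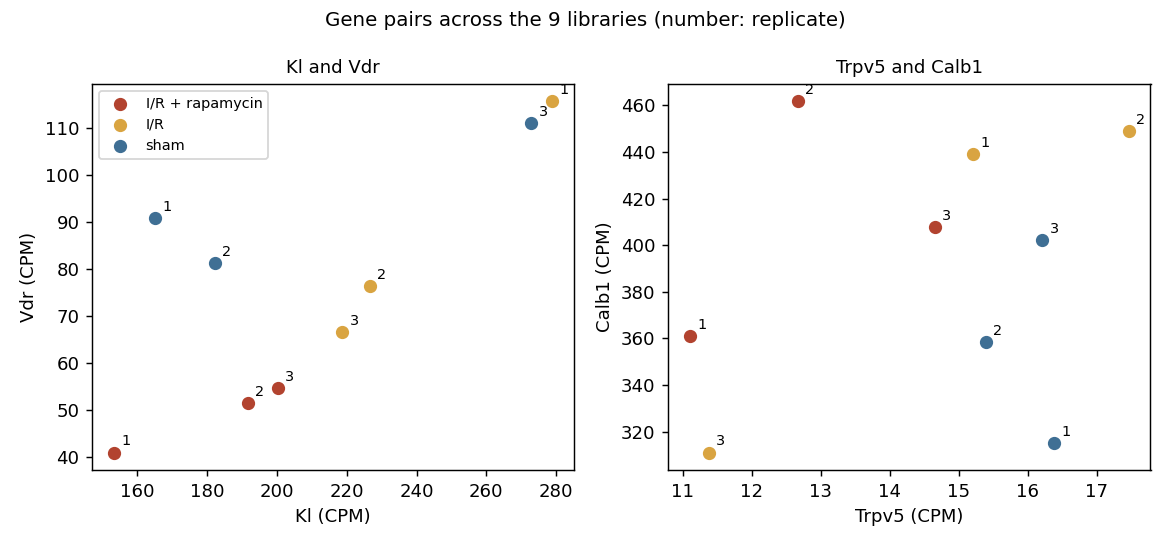
CPM level of Vdr against Kl and of Calb1 against Trpv5 in each library (a point coloured by I/R + rapamycin, I/R or sham, with its replicate number). I/R 1 and sham 3 sit together at the top right for Kl and Vdr, at 279 and 273 CPM of Kl, and without them r is 0.26.

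The genes whose pattern over the 9 libraries was most like each member, by Pearson's r of log2 CPM among 11231 named genes, were Sorcs2 (0.982) and Eif4g3 (0.972) for Vdr, and Lpar2 (0.971) and Gtf2i (0.955) for Kl. Those for Casr were Thrb (0.954) and Per3 (0.952), and those for Pth1r were Galnt11 (0.966) and F3 (0.962). Icoslg (0.960) and Tas1r2 (0.932) were most like Calb1, and Gripap1 (0.924) and Src (0.913) most like Trpv5. These are the highest of many values over few libraries and are given as a description.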

How the data were processed

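Poly(A) RNA of 9 kidney libraries was sequenced in paired ends, per the labels' protocols. Per the submitters' processing notes, the tools were HISAT2, StringTie, cutadapt and DESeq2, on build Rnor_6.0, without versions. How reads were counted, on which annotation and strand, is not given in the sources used here, so reads of antisense or overlapping genes are not separable. The authors deposited raw read counts for 30454 gene IDs, and FPKM values for 11235 genes, all of which reach 1 FPKM in 8 libraries or more. Gene symbols come from that FPKM table, so a gene listed here without a row there was not analysed here.

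Counts were tested in R 4.3.3 with edgeR 4.0.16 (TMM, default filter, robust quasi-likelihood fit of all 9 libraries, no covariates). By edgeR p-values were adjusted by Benjamini-Hochberg over 17335 genes and called under 0.05. DESeq2 adjusted over the genes left by its own filter, and its shares are of the genes to which it gave an adjusted p. Standard errors are the log2 fold change over the root of F, and log2 CPM values use a prior count of 2. Alternatives were DESeq2 1.42.0, other size factors and filters, a fit of only the 6 libraries in a comparison, a replicate block, limma 3.58.1 on log2(FPKM + 1) and log2(FPKM + 0.1), a length offset, and libraries left out. Total counts were 44582251 to 60538627 per library.

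The members and lists were chosen with earlier results of these data known. Named were the members, the 2 genes of each list and comparison with the smallest p, 13 genes in every case, and the 2 genes most like each member. The markers Klhl3 and Slc12a3 were chosen after their values were seen. Between libraries of a group the chi-square of counts per degree of freedom was 33.7 to 133, so none was a copy. Promoters come from RefSeq with build GRCr8.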

Additional observations from a re-analysis of the deposited data

How the results depend on the processing

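The count of members called was 0 in every comparison by edgeR and stayed 0 with other size factors, filters, the length offset, the 6 libraries compared, and limma on both pseudocounts. It was 1 (Vdr) by DESeq2 in I/R + rapamycin against I/R, I/R + rapamycin against sham and any difference, and 1 (Vdr) without the 2 libraries that stood apart in the last 2 of these. With 1 library left out it was 0 to 1 in those 2 and 0 elsewhere. Over 20 alternatives the Vdr difference was -0.97 to -0.54 against I/R and -1.04 to -0.81 against sham, with no change of sign.

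Signs turned for the following values, none of them called. Kl in I/R + rapamycin against sham was 0.0628 without both libraries that stood apart and -0.33 to 0.063 with 1 library left out. For I/R + rapamycin against I/R, Calb1 was -0.018 by limma with both pseudocounts and -0.058 with the length offset. The length offset kept the sign of Pth1r there, at -0.10. With 1 library left out, Calb1 was -0.12 to 0.13 and Pth1r was -0.059 to 0.026. Casr in I/R + rapamycin against sham was -0.36 to 0.062, Vdr in I/R against sham -0.40 to 0.025, and Trpv5 there -0.27 to 0.029. The cause was not tested.

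With a replicate block, Vdr was -0.80 (adjusted p 0.232) against I/R and -0.93 (adjusted p 0.255) against sham, and 0 members were called. The labels do not say what the replicate numbers mean. Deviations from group means correlated at -0.21 to 0.14 between same-numbered libraries and at -0.12 to 0.23 between differently numbered ones. Deviations within a group of 3 libraries depend on each other, so these values cannot settle whether the numbers mark pairs. The counts of all genes called, in the order I/R + rapamycin against I/R, I/R + rapamycin against sham, I/R against sham and any difference, were 22, 27, 10 and 31 by edgeR, 1, 7, 1 and 5 with the block, 708, 573, 239 and 953 by DESeq2, and 128, 104, 67 and 189 without the libraries that stood apart. Against each other, I/R + rapamycin and I/R gave 6 calls with the 6 libraries compared, 12 with limma on log2(FPKM + 1) and 11 with the smaller pseudocount, and I/R against sham gave 2, 22 and 25, and 29 with the length offset. With 1 library left out the 4 counts were 0 to 47, 3 to 47, 0 to 36 and 1 to 77.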
